A study of Rattus norvegicus with 9 samples.

Results

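The hypothalamus of 3 female rats at the early pubertal stage, day 29, was compared with that of 3 juvenile female rats at day 26. These arrays were chosen by the stage in their titles, and they are 6 of the 9 arrays of a series that goes on to late pubertal animals at day 31. The labels describe normal rats and name the juvenile animals as controls. They give no strain, treatment, allele, litter or time of day, and each array held the hypothalamus of 1 rat, so n = 3 per stage stands for animals. RNA labelled with biotin was hybridised to an Affymetrix rat expression array, whose probe sets each report a signal for a stretch of a transcript. Levels below are log2(signal + 16) after quantile normalization between arrays. They are given in the order juvenile replicates 1, 2 and 3 and early pubertal replicates 7, 8 and 10. A difference is the log2 level of early pubertal minus juvenile animals, with its SE from limma (n = 3 per stage). Levels of different genes are not compared, because probe sets respond differently.

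Puberty begins when neurons that release gonadotropin-releasing hormone (GnRH) increase their pulses and drive the gonadotropes of the pituitary. These neurons are few, and they are reached by peptide signals such as kisspeptin, neurokinin B and dynorphin, by GABA and glutamate, and by factors from astrocytes and tanycytes that line the third ventricle. The comparison of day 29 with day 26 asks which transcripts of the hypothalamus differ as this transition starts.

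The animals of a stage resembled those of the other stage about as closely as each other. Across probe sets, early pubertal arrays correlated with each other at r = 0.967 to 0.971 and with juvenile arrays at 0.967 to 0.978, and juvenile arrays correlated with each other at 0.973 to 0.979. The median SD of a gene within a stage was 0.171 in early pubertal and 0.150 in juvenile animals on the log2 scale. Median signal before normalization was 90.9 ± 10.7 (SD, n = 3) in early pubertal and 107.5 ± 5.41 in juvenile arrays, with an exact two-sided permutation p of 0.1, the smallest that 3 against 3 allows. The 3′ to 5′ signal ratio of beta-actin, which rises with RNA degradation, was 2.54 ± 0.367 and 2.73 ± 0.388 (exact permutation p = 0.5). Of 20 markers of hypothalamic neurons on the array, 15 passed the signal filter, a share close to that of all genes (10600 of 14217). Among these markers, Pmch, the melanin-concentrating hormone precursor, was at 12.89, 12.89 and 12.56 in early pubertal animals. Hcrt, the orexin precursor, was at 10.73, 10.92 and 9.85 in the same animals. Lhx9, Otp, Pomc, Sim1 and Six3 lay below the filter.

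No transcript passed the test across all probe sets. After Benjamini-Hochberg adjustment of the limma p-values, 0 of 18625 probe sets were below 0.05 (0%), and the smallest adjusted p was 0.310. At an unadjusted p under 0.05, 357 probe sets were higher in early pubertal animals (1.92%) and 474 lower (2.54%). For 719 probe sets all 3 early pubertal arrays lay above all 3 juvenile arrays (3.86%), and for 826 they lay below (4.43%). Without early pubertal replicate 7 the counts at an unadjusted p under 0.05 were 547 higher and 836 lower. The split depended on the scaling: it was 205 higher and 603 lower with median centring, with 455 and 979 not overlapping. It was 24 and 3407 at the deposited level, with 24 and 4119 not overlapping, where the median probe set stood at −0.24. The differences themselves were small: 16 probe sets exceeded 1 and 286 exceeded 0.5 in either direction, while the median SE was 0.15. With 1 probe set per gene, the brightest, 5410 of 10600 genes were higher (51.0%) and the median difference was 0.00. Of these genes 220 were higher (2.08%) and 244 lower (2.3%) at an unadjusted p under 0.05, and the arrays of the stages did not overlap for 481 higher (4.54%) and 424 lower genes (4%). These shares are the background for the counts of each gene group below. The genes described are those with the smallest p among genes whose stages did not overlap, 12 in each direction, and the 4 leading members of gene groups. A few more group members are named for their role, after their values were seen. The stages of the 24 leading genes do not overlap by choice, so their separation is a description, while other group members were named whether or not their stages overlap. Every limma adjusted p other than those printed was 0.994 or above.

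Among the 12 genes higher at day 29, several encode enzymes of steroid, lipid and xenobiotic metabolism. Akr1c15, an aldo-keto reductase of the family that reduces ketosteroids and reactive aldehydes, had log2 levels of 5.74, 5.61 and 6.29 in juvenile and 7.27, 7.37 and 7.08 in early pubertal animals. It was 2.57-fold higher, a difference of 1.36 ± 0.20 (limma adjusted p 0.310), and its juvenile levels were dim. Gpd1, the cytosolic glycerol-3-phosphate dehydrogenase that links glycolysis to lipid synthesis, stood at 9.82, 9.64 and 9.60 in juvenile and 10.38, 10.48 and 9.94 in early pubertal animals, a difference of 0.58 ± 0.13, and its other probe set gave 1.04. Early pubertal replicate 10 was the lowest of its stage for both genes. Ephx1, the microsomal epoxide hydrolase, was at 8.07, 8.06 and 8.39 and 8.66, 8.67 and 8.50, a difference of 0.44 ± 0.13. Fdps makes farnesyl diphosphate, the precursor of cholesterol and of prenyl groups on proteins. Its levels were 10.66, 10.52 and 10.41 in juvenile and 10.76, 10.88 and 10.81 in early pubertal animals, a difference of 0.29 ± 0.07. Acy1, an aminoacylase that frees amino acids from their acetylated forms, was at 9.11, 9.08 and 9.02 and 9.46, 9.41 and 9.36, a difference of 0.34 ± 0.09, with 3 closely spaced animals in each stage.

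Several of the other genes higher at day 29 have roles in stress responses, calcium binding and protein trafficking. Ndrg1, which responds to hypoxia, stress and differentiation and is abundant in oligodendrocytes, had levels of 7.65, 7.72 and 7.61 in juvenile and 8.05, 8.10 and 8.32 in early pubertal animals, a difference of 0.50 ± 0.13, with 0.30 on its brighter probe set. Ifi27, an interferon-inducible gene, was at 10.66, 10.59 and 10.61 and 10.90, 11.07 and 10.84, a difference of 0.32 ± 0.07. The calcium-binding protein S100a1 was at 8.54, 8.73 and 8.67 and 8.86, 9.08 and 9.10, a difference of 0.37 ± 0.10. In each of these 3 genes the juvenile animals lay closer together than the early pubertal animals. Nagpa, the uncovering enzyme of the mannose 6-phosphate tag on lysosomal enzymes, was dim, at 5.80, 6.32 and 5.80 and 6.56, 6.73 and 6.79, a difference of 0.72 ± 0.20. Hs1bp3, which binds the cytoskeletal adaptor HS1, was at 7.28, 6.96 and 7.06 and 7.52, 7.71 and 7.81, a difference of 0.58 ± 0.15. Lcnl differed by 0.60 ± 0.16. Gpatch4, a nucleolar protein with a G-patch domain, differed by 0.70 ± 0.16, but its other probe sets gave −0.09 and −0.11, so its probe sets disagree.

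**Figure D1:**
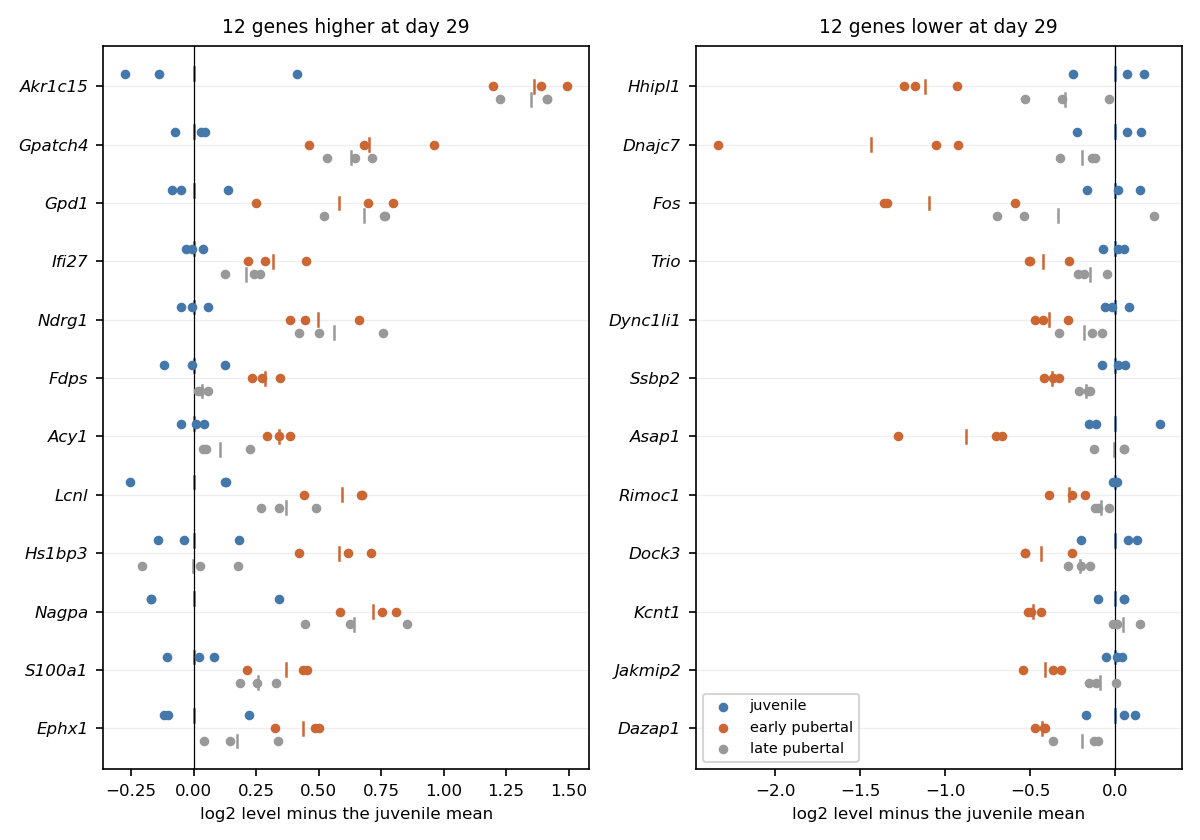
Log2 level of each animal minus the juvenile mean (x axis, log2 units) for the 12 genes higher (left) and the 12 lower (right) at day 29, 1 point per animal and a short bar at each stage mean. Juvenile and early pubertal points do not overlap, which is how the genes were chosen, and the grey points add late pubertal animals, for example Fos at 8.40 to 9.32 on the log2 scale.

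Among the 12 genes lower at day 29, Fos led the genes of known neuronal function. Fos, the transcription factor that neurons induce within minutes of firing, stood at 9.11, 9.24 and 8.93 in juvenile and 7.75, 7.74 and 8.50 in early pubertal animals. The difference was −1.10 ± 0.24, a level 0.468 times the juvenile one, and early pubertal replicates 7 and 8 lay well below replicate 10. Hhipl1, related to the Hedgehog-interacting protein, was at 6.84, 7.26 and 7.16 and 6.16, 5.85 and 5.91, a difference of −1.12 ± 0.19 (limma adjusted p 0.852), while its other probe set gave 0.20. Dnajc7, a cochaperone of Hsp70 and Hsp90, was at 7.94, 8.02 and 7.64 and 6.81, 6.94 and 5.53, a difference of −1.44 ± 0.30, with the lowest value in replicate 10. Its other probe set, the brighter with means of 9.95 in juvenile and 9.93 in early pubertal animals, gave −0.02. The difference was thus seen only with the dimmer of its 2 probe sets. Kcnt1, a sodium-activated potassium channel of neurons, was at 7.47, 7.62 and 7.62 and 7.06, 7.08 and 7.13, a difference of −0.48 ± 0.12, with its other probe sets at 0.10 and −0.14.

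Several of the remaining lower genes encode regulators of small GTPases and of transport inside the cell. Trio, a guanine nucleotide exchange factor that guides axons, was at 9.31, 9.40 and 9.43 and 9.11, 8.88 and 8.88, a difference of −0.43 ± 0.10, while its brighter probe set gave −0.16 with overlapping stages. Dock3, a Rac exchange factor of neurons, was at 9.92, 9.64 and 9.98 and 9.59, 9.32 and 9.32, a difference of −0.44 ± 0.11. Asap1, which stimulates GTP hydrolysis by Arf proteins at membranes, was dim at 6.61, 6.57 and 6.99 and 6.06, 5.45 and 6.03, a difference of −0.88 ± 0.21. Its 4 other probe sets ranged from −0.26 to 0.08, with −0.12 on the brightest. Dync1li1, a subunit that ties the dynein motor to its cargo, was at 10.16, 10.31 and 10.21 and 9.95, 9.75 and 9.80, a difference of −0.39 ± 0.09. Rimoc1, a partner of the Rab7 exchange factor on late endosomes, differed by −0.27 ± 0.07, with −0.01 on its other probe set. Jakmip2, a coiled-coil protein of neurons, differed by −0.41 ± 0.11. The remaining genes of this direction bind nucleic acids: the RNA-binding protein Dazap1 differed by −0.43 ± 0.12, and Ssbp2, a single-stranded DNA-binding cofactor of LIM-domain complexes, by −0.37 ± 0.09, with 0.22 on its other probe set. In all, 10 of the 24 genes had another tested probe set, and for 5 of them at least 1 of those had the opposite sign.

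The late pubertal animals, set against the same juvenile animals, add levels 2 days later. Akr1c15 was at 7.10, 7.29 and 7.29 in late pubertal replicates 12, 14 and 20, about its early pubertal level. Of the 12 genes higher at day 29, 8 had all 3 late pubertal animals above the juvenile range and 2 had none. These 2 were Fdps at 10.55, 10.55 and 10.59 and Hs1bp3 at 7.27, 6.89 and 7.12. Of the 12 genes lower at day 29, 3 had all 3 late pubertal animals below the juvenile range and 2 had none. Dync1li1 at 9.89, 10.09 and 10.15 lay below the juvenile range, while Asap1 at 6.60, 6.78 and 6.78 and Kcnt1 at 7.56, 7.58 and 7.72 had no animal below it. Late pubertal Fos levels were 9.32, 8.56 and 8.40, from above the juvenile range to below it. Both comparisons share the juvenile animals against which the genes were chosen, so these levels are a description, and the difference between day 29 and day 31 was not tested for these genes.

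Genes that act on GnRH neurons had values in both directions, and none passed the test. Of 28 genes listed for GnRH control, 26 are on the array and 19 were tested, with 10 higher and 9 lower and a median difference of 0.02, against 0.00 over all tested genes, and −0.04 to 0.08 when 1 array was left out. At an unadjusted p under 0.05, 2 were higher and 0 lower. The defining genes Gnrh1, Kiss1r, Esr1 and Esr2, with Galr1, Nos1 and Vipr2, lay below the signal filter. Nts, the precursor of neurotensin, a peptide that excites GnRH neurons, stood at 8.55, 8.22 and 8.16 in juvenile and 8.72, 8.63 and 8.60 in early pubertal animals, a difference of 0.34 ± 0.12 without overlap. Tac3 encodes neurokinin B, which drives the kisspeptin neurons that pace GnRH release. Its levels were 6.95, 7.14 and 7.47 and 7.48, 7.65 and 7.51, a difference of 0.36 ± 0.17, and the highest juvenile animal lay just under the lowest early pubertal one. Npvf encodes RFamide peptides that restrain gonadotropin release, and it had the widest spread of these peptides, with 8.38, 8.03 and 8.44 in juvenile and 8.90, 8.27 and 9.45 in early pubertal animals, a difference of 0.59 ± 0.23. Early pubertal replicate 8 lay within the juvenile range and replicate 10 was more than 1 log2 unit above the juvenile mean. Pdyn, the dynorphin precursor, was at 9.94, 10.04 and 9.97 and 10.50, 9.93 and 10.25, a difference of 0.24 ± 0.13, again with replicate 8 at the juvenile level, and 0.48 on its other probe set.

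The other peptides of this group had smaller differences beside their SE. The values were 0.17 ± 0.12 for Npy, 0.24 ± 0.18 for Tac1, the substance P precursor, 0.13 ± 0.10 for Penk, the enkephalin precursor, 0.02 ± 0.14 for galanin (Gal) and −0.13 ± 0.19 for Vip. Among receptors, the progesterone receptor Pgr was at 6.29, 6.90 and 7.04 and 6.52, 6.32 and 6.51, a difference of −0.29 ± 0.21 with overlapping stages. The vasopressin receptor Avpr1a differed by −0.26 ± 0.23, the neurotensin receptor Ntsr1 by 0.29 ± 0.26, the substance P receptor Tacr1 by −0.22 ± 0.21, the neurokinin B receptor Tacr3 by −0.19 ± 0.26 and the prolactin receptor Prlr by −0.14 ± 0.23. Npy1r differed by −0.08 ± 0.11, the kappa opioid receptor Oprk1 by −0.02 ± 0.20, Npffr1, a receptor of the Npvf peptides, by 0.04 ± 0.31 and the leptin receptor Lepr by −0.06 ± 0.23, with 0.37 on its other probe set. None of these receptors had stages without overlap.

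**Figure D2:**
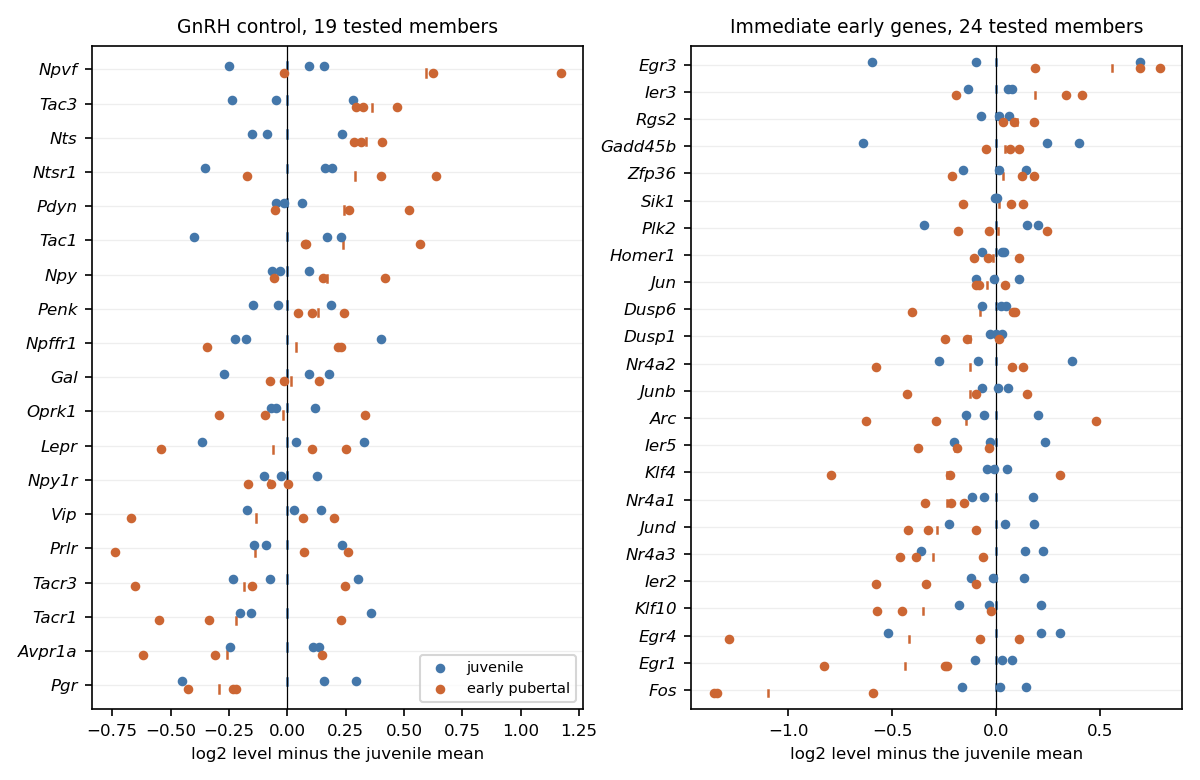
Log2 level of each animal minus the juvenile mean (x axis, log2 units) for the 19 tested genes of GnRH control (left) and the 24 tested immediate early genes (right), 1 point per animal and a short bar at each stage mean. Nts and Tac3 on the left and Fos, Egr1 and Nr4a1 on the right have stages that do not overlap.

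Releasing hormones and magnocellular peptides showed large differences between single animals. Of 13 tested genes, 5 were higher and 8 lower, with a median of −0.03, which was 0.03 without early pubertal replicate 7 and −0.16 without replicate 10, and 1 was lower at an unadjusted p under 0.05. This was Crh, the corticotropin-releasing hormone, at 7.02, 7.56 and 7.07 in juvenile and 6.98, 6.74 and 6.59 in early pubertal animals, a difference of −0.45 ± 0.19 without overlap. Ghrh, the growth hormone-releasing hormone, differed by 0.29 ± 0.20 and the somatostatin receptor Sstr2 by −0.22 ± 0.13. Of the peptides released from the posterior pituitary, Oxt was at 12.06, 12.42 and 11.70 and 12.10, 10.39 and 12.18, a difference of −0.50 ± 0.39. Avp was at 11.81, 12.10 and 11.51 and 12.12, 11.16 and 12.03, a difference of −0.03 ± 0.23. Early pubertal replicate 8 was the lowest of the 6 animals for both, and without it the differences were 0.08 for Oxt and 0.27 for Avp. In bulk tissue, fewer cells of a type and less RNA per cell cannot be told apart, and the labels do not describe how the tissue was cut.

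Genes of feeding and energy balance had 10 of 17 tested members higher and a median of 0.05, with 2 higher and 0 lower at an unadjusted p under 0.05. Hcrtr1, the orexin receptor of noradrenergic and other arousal neurons, was at 7.78, 7.69 and 8.01 and 8.32, 8.09 and 8.01, a difference of 0.31 ± 0.13, with replicate 10 at the level of the highest juvenile animal. Nucb2, the precursor of the satiety peptide nesfatin-1, was at 8.80, 8.91 and 8.96 and 9.06, 9.03 and 9.19, a difference of 0.21 ± 0.09 without overlap. Cartpt, which encodes the CART peptides, differed by 0.14 ± 0.09. Hcrt itself was at 10.78, 9.63 and 10.15 and 10.73, 10.92 and 9.85, so its animals ranged over more than 1 log2 unit in each stage. Ghsr, Glp1r, Mc4r, Npy2r, Pomc and Socs3 lay below the signal filter.

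Proteins of peptide secretion gave 7 of 19 tested members higher, with a median of −0.04. Chgb, a granin that packs peptides into dense-core vesicles, was at 10.83, 10.91 and 10.92 and 11.05, 10.98 and 11.08, a difference of 0.16 ± 0.06 without overlap. Pcsk1n, an inhibitor of the prohormone convertase PC1, differed by 0.19 ± 0.09, the peptide-amidating enzyme Pam by 0.13 ± 0.06 and the convertase Pcsk6 by 0.24 ± 0.12. These 4 have positive values, while 12 of the 19 members were lower.

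Immediate early genes had the lowest median of the 43 gene groups examined. Of 32 listed genes, 24 were tested, of which 17 were lower and 7 higher, with a median difference of −0.13. At an unadjusted p under 0.05, 3 were lower and 0 higher, and 3 had stages that did not overlap, all of them lower. The group is described with earlier results of these data known, and it holds genes of different kinetics. Fos (above) had the largest difference. Egr1, a zinc-finger factor that firing and growth factors induce, was at 9.52, 9.65 and 9.70 in juvenile and 8.80, 9.39 and 9.38 in early pubertal animals, a difference of −0.44 ± 0.16, with replicate 7 the lowest. Jund, a partner of Fos in the AP-1 complex that is also present without stimulation, was at 9.26, 9.53 and 9.67 and 9.39, 9.16 and 9.06, a difference of −0.28 ± 0.12 with overlap. Ier2 was at 7.54, 7.79 and 7.64 and 7.56, 7.32 and 7.08, a difference of −0.34 ± 0.16, also with overlap.

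The rest of the group varied in direction. The orphan receptor Nr4a1 was at 7.82, 7.89 and 8.12 and 7.60, 7.72 and 7.79, a difference of −0.24 ± 0.18 without overlap. Its relative Nr4a3 differed by −0.30 ± 0.18 and the zinc-finger factor Klf10 by −0.35 ± 0.17, both with overlap. Egr3 was higher by 0.55 ± 0.29, at 5.30, 5.79 and 6.58 and 6.68, 6.58 and 6.08, dim values that spread widely among juvenile animals. Summed signal, here and below, adds the normalized linear signal of all listed genes on the array, tested or not, so bright genes weigh most. For the 29 immediate early genes on the array it was 7120 to 7316 in early pubertal and 7899 to 8300 in juvenile animals, so that the stages did not overlap. Without Fos and Egr1, the members with the smallest p, it was 6298 to 6492 in early pubertal and 6642 to 7004 in juvenile animals, still without overlap. The median difference of the group was −0.21 without early pubertal replicate 7.

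Promoters of immediate early genes are known for 2 sequence elements, the cAMP response element (CRE, TGACGTCA) bound by CREB and the CArG box bound by serum response factor. Of the 24 tested genes, 17 matched an entry in the RefSeq promoter table (assembly GRCr8), Fos not among them, and the 250 bases before each start were searched. The CRE reads the same on both strands. The CArG box is a pattern that matches on both strands at once, although the letters of a match can differ between them. No 2 matches overlapped. A CRE was found in 4 of 17 (23.5%), against 490 of 27457 genes in the table (1.78%), and a CArG box in 2 of 17 (11.8%), against 445 of 27457 (1.62%). Egr1 held 2 CArG boxes and Zfp36 held 1, and Jund, Ier2, Dusp1 and Plk2 held 1 CRE each. The promoters of Jund and Ier2 are shown because both genes are among the 4 leading members of the group and hold a CRE. Egr1, also among these 4, holds CArG boxes and no CRE, and its promoter is not shown. Capitals mark the CRE, whose first base lies 66 bases before the start in Ier2 and 221 bases before it in Jund. Jund lies at chr16:18769772-18770021 on the minus strand and Ier2 at chr19:40399123-40399372 on the plus strand, both given 5′ to 3′ in the direction of transcription.
Jund: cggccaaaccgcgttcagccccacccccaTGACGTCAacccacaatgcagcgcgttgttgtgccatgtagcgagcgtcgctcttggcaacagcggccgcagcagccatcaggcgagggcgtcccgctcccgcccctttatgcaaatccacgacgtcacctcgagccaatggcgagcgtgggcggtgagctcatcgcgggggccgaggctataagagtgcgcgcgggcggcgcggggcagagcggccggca
Ier2: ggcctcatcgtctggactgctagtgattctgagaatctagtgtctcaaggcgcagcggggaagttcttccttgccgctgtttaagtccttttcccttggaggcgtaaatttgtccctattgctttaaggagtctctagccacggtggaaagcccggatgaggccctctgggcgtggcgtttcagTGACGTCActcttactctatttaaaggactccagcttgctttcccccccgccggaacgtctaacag
Genes with a CRE differed by −0.28 (Jund), −0.34 (Ier2), −0.12 (Dusp1) and 0.01 (Plk2), and the 2 with a CArG box by −0.44 (Egr1) and 0.03 (Zfp36). A match is a stretch of letters in this window, and binding was not measured.

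Glucocorticoid-induced genes had the second highest median of the 43 groups, at 0.16. Of 21 tested members, 16 were higher and 5 lower, and 5 had stages that did not overlap, all higher. At an unadjusted p under 0.05, 5 were higher and 0 lower. Besides Gpd1 and Ndrg1, Sult1a1, a sulfotransferase of phenols and steroids, was at 9.45, 9.29 and 9.60 in juvenile and 9.72, 9.73 and 10.09 in early pubertal animals, a difference of 0.40 ± 0.12. Fkbp5, a cochaperone that lowers the affinity of the glucocorticoid receptor, was at 8.68, 8.61 and 8.51 and 9.03, 8.78 and 8.82, a difference of 0.28 ± 0.11, and 0.19 on its other probe set. Early pubertal replicate 10 had the highest level of Sult1a1 and of Ndrg1, the latter on both probe sets, but not of Fkbp5 or Gpd1. The group's median deviation from each gene's mean was 0.22 in replicate 10 against 0.04 and −0.04 in replicates 7 and 8, and −0.10 to −0.03 in juvenile animals. Leaving out replicate 10 gave a median difference of 0.13, and leaving out replicate 8 gave 0.23. Markers of leptomeninges were highest in that same animal, as described below, and their part in this result was not tested. The clock gene Per1, which is induced by light and activity as well as by glucocorticoids, was at 7.10, 6.43 and 6.57 and 6.55, 5.29 and 7.41, a range of more than 2 log2 units among early pubertal animals, and its difference was −0.28 ± 0.43, or 0.28 without replicate 8.

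Enzymes that make and modify steroids gave 12 of 16 tested members higher and a median of 0.07, or 0.12 without early pubertal replicate 10, with 3 higher and 0 lower at an unadjusted p under 0.05. Sts, the steroid sulfatase that frees steroids from their sulfate stores, was at 7.01, 7.03 and 6.74 and 7.32, 7.06 and 7.52, a difference of 0.37 ± 0.16, and Hsd17b10, a mitochondrial hydroxysteroid dehydrogenase, was at 8.99, 8.79 and 8.99 and 9.02, 9.14 and 9.39, a difference of 0.26 ± 0.13. With Akr1c15 and Sult1a1 these are the 4 members without overlap, each higher at day 29. The summed signal of the group was 6776 to 7440 in early pubertal and 6392 to 6629 in juvenile animals. Hsd11b1, which regenerates active glucocorticoid, differed by 0.09 ± 0.11.

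Cholesterol synthesis gave 16 of 23 tested members higher with a median of 0.06, and Fdps was the only member with stages that did not overlap. Fdft1, the squalene synthase that uses the product of Fdps, was at 9.71, 9.57 and 9.48 and 9.70, 9.90 and 9.71, a difference of 0.18 ± 0.09, with −0.01 on its other probe set. The sterol reductase Tm7sf2 differed by 0.19 ± 0.13 and Srebf1, which controls lipid synthesis genes, by 0.20 ± 0.17. The group's median deviation was −0.02 to 0.04 in early pubertal animals and −0.11 to 0.05 in juvenile animals, which overlap. The median difference was 0.01 without early pubertal replicate 7 and 0.12 without juvenile replicate 1.

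Ribosomal proteins gave 24 of 29 tested members higher with a median of 0.06, 3 higher at an unadjusted p under 0.05 and 7 without overlap, all of them higher. Rplp0 was at 10.99, 10.89 and 11.07 and 11.08, 11.27 and 11.26, a difference of 0.22 ± 0.07, Rps9 at 11.52, 11.48 and 11.49 and 11.54, 11.80 and 11.69, a difference of 0.18 ± 0.07, and Rpl18 differed by 0.15 ± 0.06. All 3 early pubertal animals had a median deviation above 0, from 0.01 to 0.06, and all 3 juvenile animals one below it, from −0.06 to −0.01. The summed signal of the ribosomal group overlapped, at 118512 to 123489 in early pubertal and 114268 to 118732 in juvenile animals. With each array centred on its own median in place of quantile normalization the ribosomal median was 0.13. Oxidative phosphorylation gave 39 of 56 higher with a median of 0.03, but 1 member at an unadjusted p under 0.05 and 3 without overlap, all higher, are shares near the background. Its summed signal overlapped, at 143350 to 147972 in early pubertal and 141291 to 144902 in juvenile animals. It was led by Cox7c at 0.12 ± 0.05 and Cox5a at 0.39 ± 0.20, subunits of cytochrome c oxidase, and Atp5f1a, a subunit of ATP synthase, at 0.11 ± 0.06. Glycolysis and lipid energy metabolism gave 25 of 38 higher with a median of 0.04, or 0.00 without early pubertal replicate 8. Here Elovl6, a fatty acid elongase, was lower, at 10.15, 10.50 and 10.23 and 10.06, 10.09 and 10.04, a difference of −0.23 ± 0.10, with −0.13 on its other probe set, and so was Pfkfb3, an activator of glycolysis, with a difference of −0.35 ± 0.16 and −0.18 on its other probe set. Both had stages without overlap, and the muscle-type phosphofructokinase Pfkm differed by 0.16 ± 0.07.

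No chaperone passed the test. By the brightest probe set of each gene, 1 member of each chaperone group was higher and 0 lower at an unadjusted p under 0.05. The dimmer probe set of the cochaperone Dnajc7, lower by −1.44 as described above, is not part of these counts. In the endoplasmic reticulum group 13 of 28 tested members were higher, with a median of 0.00. Hspa5, the main chaperone of that compartment, was at 12.08, 12.21 and 12.11 and 11.98, 11.90 and 11.96, a difference of −0.19 ± 0.09 without overlap, while the calcium-binding chaperone Calr differed by 0.24 ± 0.09. Among cytosolic heat shock and DnaJ proteins 19 of 31 were higher with a median of 0.02. Cryab, a small heat shock protein that oligodendrocytes express strongly, was at 9.28, 9.23 and 8.75 and 9.29, 9.38 and 9.67, a difference of 0.36 ± 0.14.

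**Figure D3:**
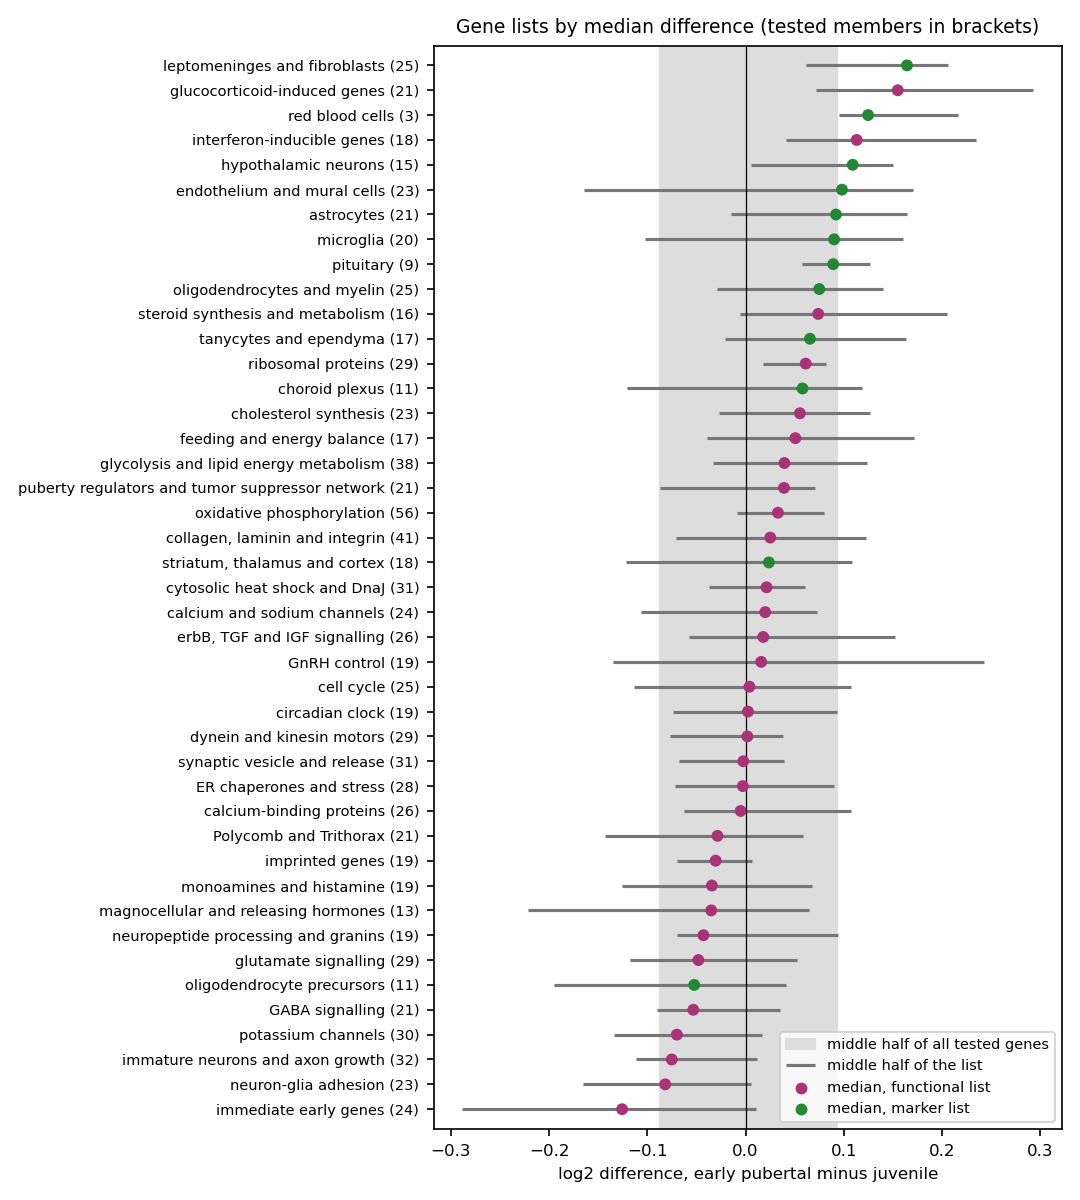
Median difference of each gene group, early pubertal minus juvenile (x axis, log2 units), with the number of tested members in brackets, a line over the interquartile range of the members, and the interquartile range of all 10600 tested genes in grey, from −0.09 to 0.09. The median of immediate early genes, −0.13, lies below the grey band, and 6 medians lie above it, the highest being leptomeninges and fibroblasts at 0.16.

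Medians of the groups of neuronal signalling were near 0, and each moved when 1 array was left out. GABA signalling gave 14 of 21 tested members lower with a median of −0.05, or −0.01 without juvenile replicate 1. At an unadjusted p under 0.05, 1 was higher and 0 lower. The higher one was the GABA transporter Slc6a13, at 0.46 ± 0.20 with overlap, which is also listed as a marker of leptomeninges. Gad1, which makes most neuronal GABA, was at 11.83, 11.98 and 11.87 and 11.86, 11.74 and 11.78, a difference of −0.10 ± 0.06, with −0.02 on its other probe set. Glutamate signalling gave 18 of 29 lower with a median of −0.05, or −0.01 without juvenile replicate 3, while Glud1, the glutamate dehydrogenase, was higher by 0.13 ± 0.05 without overlap. Monoamine and histamine genes gave 11 of 19 lower with a median of −0.03, or 0.02 without juvenile replicate 3. Hnmt, which inactivates histamine, was at 7.53, 7.63 and 7.88 and 7.51, 7.33 and 7.34, a difference of −0.29 ± 0.13 without overlap. Slc6a3, the dopamine transporter, was at 8.43, 6.64 and 6.95 and 6.98, 6.07 and 7.09, with juvenile replicate 1 far above the other 5 animals. Htr2c, a serotonin receptor of appetite circuits, gave −0.20 ± 0.09 on its brightest probe set and 0.44 on the other. Markers of hypothalamic neurons, a separate list, gave 11 of 15 tested members higher with a median of 0.11, or 0.04 without juvenile replicate 2. At an unadjusted p under 0.05, 1 of these markers was higher and 0 lower. This was Rax, also the only one with stages without overlap. Rax is listed as a tanycyte marker too and is described there below, so its value is not specific to neurons.

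Potassium channels gave 21 of 30 tested members lower with a median of −0.07, and none at an unadjusted p under 0.05 on its brightest probe set. Kcnt1, described above for a probe set that gave −0.48, had 0.10 on its brightest. Kcnj3, a subunit of the G protein-gated inward rectifier, was at 7.30, 7.19 and 7.21 and 7.09, 6.58 and 7.04, a difference of −0.33 ± 0.20 without overlap, with −0.29 on its other probe set. Hcn2, a pacemaker channel, differed by −0.29 ± 0.14. Calcium and sodium channels gave 13 of 24 higher with a median of 0.02. Cacna1a, the pore of the P/Q-type calcium channel, was higher by 0.38 ± 0.17, with −0.08 on its other probe set, and Cacna1d, the pore of an L-type channel, differed by −0.28 ± 0.16, both without overlap. Synaptic vesicle genes gave 15 of 31 higher with a median of 0.00, and the active-zone scaffold Bsn differed by −0.26 ± 0.11. Their median deviation ranged from −0.09 to 0.12 in early pubertal and from −0.09 to 0.05 in juvenile animals. Calcium-binding proteins gave 13 of 26 higher, with the neuronal sensor Vsnl1 at −0.14 ± 0.06, with 0.06 on its other probe set, and the glial S100b at 0.10 ± 0.05.

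In the group of immature neurons and axon growth 22 of 32 tested members were lower with a median of −0.08, or −0.04 without early pubertal replicate 10, and 5 were lower and 1 higher at an unadjusted p under 0.05. Epha4, a receptor for ephrins, was at 9.68, 9.57 and 9.85 and 9.57, 9.26 and 9.39, a difference of −0.29 ± 0.11 on its brightest probe set and −0.10 to 0.21 on its 3 others. Dpysl5, a collapsin response mediator of growth cones, was at 8.42, 8.46 and 8.39 and 8.22, 8.12 and 8.19, a difference of −0.24 ± 0.10, and Nrp1, a semaphorin receptor, was at 8.71, 8.71 and 8.74 and 8.53, 8.39 and 8.54, a difference of −0.23 ± 0.10, both without overlap. Stmn1, which destabilises microtubules, went the other way at 0.19 ± 0.07. Adhesion molecules between neurons and glia gave 17 of 23 lower with a median of −0.08. Cadm1 was at 11.01, 11.29 and 11.15 and 10.86, 10.78 and 11.03, a difference of −0.26 ± 0.09, with −0.12 on its other probe set, and Ncam2 at 7.84, 7.58 and 7.67 and 7.44, 7.43 and 7.32, a difference of −0.30 ± 0.19. The median of the adhesion group was −0.01 when the probe sets of each gene were averaged. Its median deviation was −0.09 and −0.02 in replicates 7 and 10 and 0.07 in replicate 8, as high as the highest juvenile animal, and without replicate 7 the difference was 0.00.

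Regulators studied in connection with puberty, with the tumour suppressor genes linked to them, gave 12 of 21 tested members higher and a median of 0.04. At an unadjusted p under 0.05, 1 was higher and 1 lower. The lower one, Cadm1, had the smallest p of the group, with the difference of −0.26 ± 0.09 given above and overlapping stages. Nf2, the tumour suppressor merlin, was at 8.65, 8.83 and 8.76 and 9.02, 9.01 and 8.95, a difference of 0.25 ± 0.10 without overlap. Wwox, an oxidoreductase, was at 7.46, 7.39 and 7.32 and 6.94, 7.02 and 7.28, a difference of −0.31 ± 0.17, and Irf2bpl, a transcriptional regulator also known as Eap1, differed by −0.14 ± 0.07, both lower without overlap. Some genes of this group may have been chosen in earlier work on such samples, so it is not independent evidence of a direction. Polycomb and Trithorax proteins, which set repressive and active chromatin marks, gave 13 of 21 lower with a median of −0.03, and none was below an unadjusted p of 0.05 or without overlap. Cbx6, a Polycomb reader, differed by −0.16 ± 0.08, the histone methyltransferase Ezh1 by 0.14 ± 0.10 and Kmt2a by 0.14 ± 0.11, with −0.42 on its other probe set. Imprinted genes gave 13 of 19 lower with a median of −0.03, among them Ube3a, a ubiquitin ligase expressed from the maternal allele in neurons, at −0.13 ± 0.07 without overlap.

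Growth factor signalling had members in both directions. Of 26 tested genes of erbB, TGF and IGF signalling, 14 were higher, with a median of 0.02. Igfbp5, a binding protein of insulin-like growth factors, was at 9.48, 9.59 and 9.66 and 9.75, 9.84 and 10.12, a difference of 0.32 ± 0.10, with −0.18 and 0.09 on its other probe sets. Tgfb2, a TGF-beta of glia and neurons, was at 8.07, 7.98 and 7.87 and 7.56, 7.59 and 7.77, a difference of −0.34 ± 0.13, with 0.05 on its other probe set, and Igfbp3 differed by −0.32 ± 0.15. The circadian clock genes gave 10 of 19 higher with a median of 0.00 and none at an unadjusted p under 0.05, and cell cycle genes gave 13 of 25 higher with a median of 0.00. Motor and microtubule genes gave 16 of 29 higher with a median of 0.00, and 3 of them, Dync1li1 included, were lower without overlap.

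Interferon-inducible genes gave 14 of 18 tested members higher with a median of 0.11, or 0.06 without juvenile replicate 1. The members Ifi27 and Isg15 had stages without overlap, and Isg15, a ubiquitin-like modifier, was at 7.02, 7.24 and 5.89 and 7.38, 7.25 and 7.28, a difference of 0.58 ± 0.28, with juvenile replicate 3 more than 1 log2 unit below every other animal. Irf1, a transcription factor of the response, was at 7.41, 7.24 and 7.13 and 7.90, 7.59 and 7.38, a difference of 0.37 ± 0.16, and Ifitm3 differed by 0.26 ± 0.14. The group's median deviation was 0.11, 0.07 and −0.03 in early pubertal animals and −0.13, 0.09 and −0.14 in juvenile animals, so that juvenile replicate 2 lay among the early pubertal ones. Its summed signal was 9716 to 9838 at day 29 and 8466 to 9550 at day 26.

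Glial markers differed in both directions. Astrocyte markers gave 15 of 21 tested members higher with a median of 0.09. Aldh1l1, a folate enzyme of astrocytes, was at 8.63, 8.43 and 8.45 and 8.79, 8.71 and 9.0, a difference of 0.33 ± 0.11 without overlap, and Gfap, the glial filament protein, differed by 0.16 ± 0.07. Without juvenile replicate 2 the astrocyte median was 0.03. Tanycyte and ependymal markers gave 12 of 17 higher with a median of 0.07, which was −0.03 without early pubertal replicate 10, the animal with the highest median deviation at 0.28. Rax, the homeobox gene of tanycytes, was nevertheless higher in all 3 early pubertal animals, at 6.74, 6.83 and 6.86 and 7.18, 7.10 and 7.30, a difference of 0.39 ± 0.15. Sox2, a factor of neural stem cells, differed by −0.17 ± 0.08. Dio2, Fgf10 and Gpr50, which mark tanycytes, lay below the signal filter.

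Myelin and oligodendrocyte markers gave 18 of 25 higher with a median of 0.08, or −0.06 without juvenile replicate 3, the animal with the lowest median deviation at −0.22. Aspa, an enzyme of oligodendrocytes, was at 8.93, 8.90 and 8.46 and 9.09, 9.04 and 8.99, a difference of 0.28 ± 0.14, while the abundant myelin protein Mbp differed by 0.04 ± 0.05. Markers of oligodendrocyte precursors gave 8 of 11 lower with a median of −0.05, led by Lhfpl3 at −0.20 ± 0.09. Microglial markers gave 13 of 20 higher with a median of 0.09, or −0.02 without juvenile replicate 3, and its members had values in both directions. C1qb, a complement component, was at 8.28, 8.46 and 8.41 and 8.60, 9.13 and 8.64, a difference of 0.41 ± 0.15, and Tmem119, a microglial surface protein, was at 7.21, 7.59 and 7.33 and 6.74, 6.58 and 7.14, a difference of −0.56 ± 0.21, both without overlap. Markers of endothelium and mural cells gave 14 of 23 higher with a median of 0.10, or 0.03 without juvenile replicate 3. The aminopeptidase Anpep was higher by 0.43 ± 0.18 without overlap, while Kdr, the VEGF receptor, at −0.29 ± 0.12, and the pericyte genes Abcc9 at −0.34 ± 0.14 and Higd1b at −0.34 ± 0.14 were lower without overlap.

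**Figure D4:**
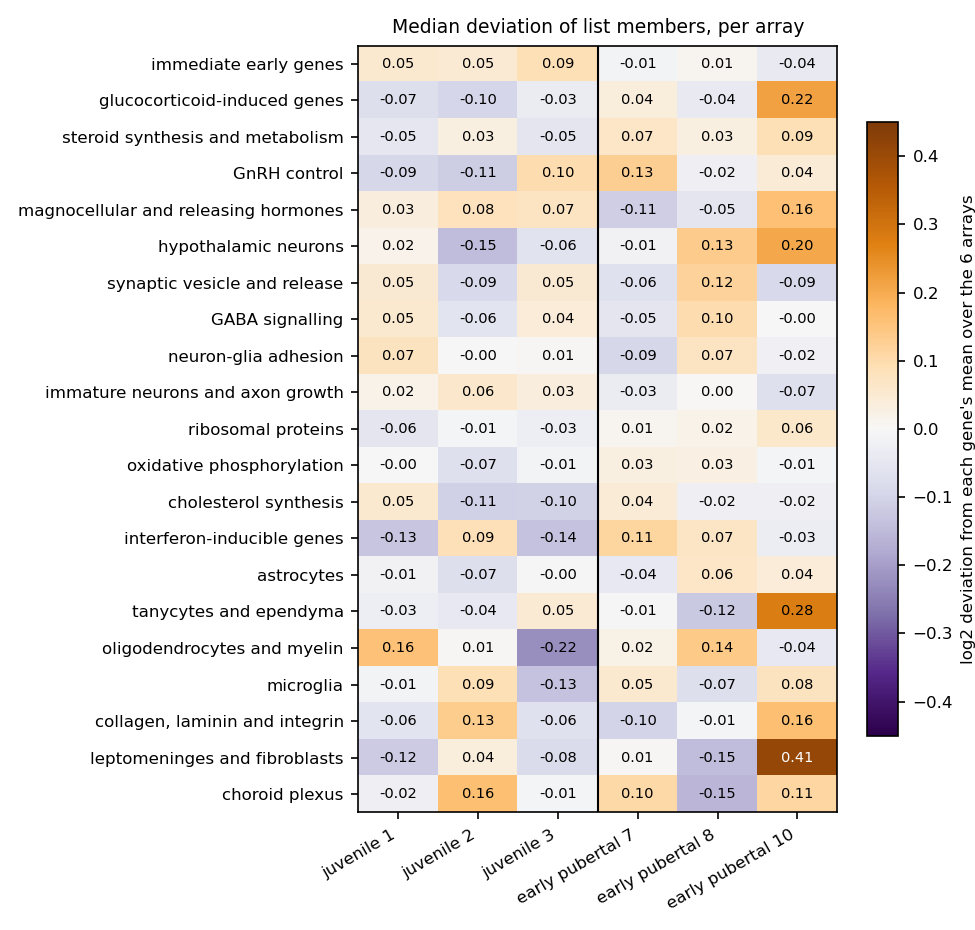
Median deviation of the members of 21 gene groups from each gene's mean over the 6 arrays (colour and printed value, log2 units), 1 column per animal. Leptomeninges and fibroblasts reach 0.41 in early pubertal replicate 10, where tanycytes and ependyma reach 0.28 and glucocorticoid-induced genes 0.22.

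Markers of tissue at the edges of the hypothalamus varied between animals. Markers of leptomeninges and fibroblasts, from the membranes that cover the brain, gave 22 of 25 tested members higher with the highest median of all groups, 0.16. Mgp, the matrix Gla protein, was at 10.35, 10.71 and 10.47 and 10.90, 10.55 and 11.18, a difference of 0.36 ± 0.14, and Dcn, decorin, was at 9.32, 9.82 and 9.16 and 9.67, 9.62 and 10.01, a difference of 0.33 ± 0.15, and no member had stages without overlap. The summed signal of the group was 25201 to 27866 in juvenile animals, and 27125, 26343 and 34197 in early pubertal replicates 7, 8 and 10. Without replicate 10 the median was 0.01. Pituitary markers gave 7 of 9 tested members higher with a median of 0.09, but Gh1, Prl and Pou1f1 lay below the signal filter, and the summed signal was 3561 to 5025 in juvenile and 4084 to 4915 in early pubertal animals. Tshb, the thyrotropin subunit, chosen here after its values were seen, was at 6.45, 9.18 and 6.55 and 6.63, 7.24 and 7.99, highest in juvenile replicate 2. Choroid plexus markers gave 6 of 11 tested members higher, with 11 more below the filter, among them Otx2, Kl and Kcnj13, and the transthyretin gene Ttr was at 7.59, 7.62 and 7.63 and 7.76, 7.11 and 8.14. Markers of striatum, thalamus and cortex gave 9 of 18 higher with a median of 0.02, and 2 members had stages without overlap, both lower. Prkcd, a kinase of thalamic neurons, was at 8.12, 8.40 and 7.97 and 7.93, 7.58 and 7.72, a difference of −0.42 ± 0.15. The other, Tcf7l2, was at 9.69, 9.68 and 9.65 and 9.31, 9.61 and 9.58, a difference of −0.17 ± 0.10. The part of these tissues in the differences above was not tested.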

How the data were processed

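RNA from 1 hypothalamus per array was hybridised to Affymetrix rat arrays, 3 per stage. The authors deposited linear signal intensities, 1 per probe set and array, which MAS5 produced, per the submitters' processing notes. The MAS5 version and target level are not stated there, and detection calls were not used. Groups, ages and replicate numbers came from titles and source names, and no batch, date or pairing is labelled.

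After adding 16, signals were log2 transformed, then quantile normalized, because the deposited levels differed between arrays. Fold changes on this scale understate those of dim probe sets. Of 31099 probe sets, 57 controls were left out. Platform annotation gave 1 symbol to 20826 and several to 436, and 9780 are unnamed here. Probe sets whose mean over the 9 arrays exceeded the 40th percentile were tested (18625, of which 14268 had 1 symbol, for 10600 genes). Limma 3.58.1 in R 4.3.3 fitted 1 mean per stage over all 9 arrays with a trended prior (5.8 degrees of freedom, beside 6 residual ones) and two-sided tests, with Benjamini-Hochberg adjustment at 0.05. The fit was tested on simulated data.

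Named genes were, per direction, up to 10 past the adjusted threshold, filled to 12 by the smallest p among genes with 1 symbol whose stages did not overlap, up to 4 tested members per gene list by smallest p, and every tested gene of GnRH control. Lists stand for each gene by its brightest tested probe set. The members and lists were chosen with earlier results of these data known. Promoters came from RefSeq (GRCr8). Alternatives were constants of 1 and 64, the deposited level, median centring, no filter or the 60th percentile, no trend, only the 6 arrays, leaving out each array, and averaging the probe sets of a gene in lists. The number of arrays limits the precision.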

Additional observations from a re-analysis of the deposited data

How the results depend on the processing

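The count of 0 probe sets past the adjusted limma threshold held under all alternatives except the deposited level, with 1 higher (Akr1c15, adjusted p 0.0406) and 9 lower, among them Fos (0.00217), Dnajc7 (0.00472) and Hhipl1 (0.0204). There the median of all probe sets was −0.24, against −0.03 with median centring, and list and gene values are relative to it. At an unadjusted p under 0.05, 357 higher and 474 lower probe sets became 24 and 3407 at the deposited level, 205 and 603 with median centring, and 636 and 777 without the filter, which tests more. Leaving out an array gave 341 to 547 higher and 383 to 836 lower. Probe sets whose stages did not overlap, 719 and 826, became 24 and 4119 at the deposited level, 455 and 979 with median centring, and 1278 and 1362 without the filter. They became 1338 to 1808 and 1528 to 2232 without an array, where 2 animals overlap less often by construction.

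Among list medians, immediate early genes gave −0.093 with a constant of 64, −0.16 with median centring, −0.20 at the 60th percentile and −0.21 to −0.12 without an array. GnRH control gave 0.13 at the 60th percentile. Granins and peptide processing gave 0.039 at the deposited level and 0.011 with median centring. Ribosomal proteins gave 0.15 and 0.13 under these. At the deposited level imprinted genes gave 0.0067, oxidative phosphorylation 0.083 and glycolysis and lipid metabolism 0.10. Puberty regulators gave −0.011 with median centring, −0.0023 with averaged probe sets, and −0.019 to 0.074 without an array. Choroid plexus gave −0.11 without the filter. Leaving out an array gave 0.0096 to 0.12 for feeding, −0.094 to −0.038 for immature neurons, −0.065 to 0.077 for cell cycle, 0.030 to 0.11 for astrocytes, −0.024 to 0.29 for red blood cells and 0.020 to 0.14 for pituitary. It also gave −0.16 to 0.029 for releasing and magnocellular hormones, 0.13 to 0.23 for glucocorticoid-induced genes, −0.072 to −0.0085 for glutamate, −0.078 to −0.0067 for GABA and −0.064 to 0.015 for monoamines. The sign of the median turned without at least 1 of the 6 arrays in 20 of 43 lists. The cause was not tested.

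Signs turned for 15 of 144 probe sets of the genes named. Plk2 gave −0.0051 at the deposited level and −0.033 with median centring, Gal −0.021 with median centring and Avp 0.019 at the deposited level. Without an array the ranges were −0.17 to 0.11 for Plk2, −0.12 to 0.11 for Gal, −0.21 to 0.27 for Avp, −0.81 to 0.076 for Oxt, −0.18 to 0.34 for Ttr, −0.19 to 0.12 for Oprk1, −0.075 to 0.24 for Npffr1, −0.41 to 0.048 for Tacr3, −0.57 to 0.79 for Tshb, −0.33 to 0.17 for Prlr, −0.24 to 0.18 for Lepr, −0.091 to 0.077 for the brighter Dnajc7 probe set, −0.78 to 0.28 for Per1, −0.30 to 0.13 for Vip and −0.048 to 0.15 for Zfp36. The difference in the beta-actin ratio ranged from −0.349 to 0.0288 and in the GAPDH ratio from −0.0176 to 0.0162. No paired analysis was possible because the stages share no replicate numbers.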
